A study of Homo sapiens with 16 samples.

Results

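The genes described here differed the same way between dnLEF1 and GFP libraries in each of 2 colon cancer cell lines, SW480 and SW620. All 16 libraries of polyadenylated RNA entered 1 fit, and the effect was taken as the average of the dnLEF1 against GFP difference in SW480 and that in SW620. Because that average can be carried by 1 line, a shared change was defined as a gene called in each line's own contrast in the same direction. By that rule 464 of 14926 genes tested were shared, 296 rises and 168 falls. SW480 is an established line from a primary colon tumour, and SW620 comes from a lymph node metastasis of the same patient. Each line carried either GFP, labelled as the mock control with high Wnt activity, or dnLEF1, labelled as the experimental state with low Wnt activity. The 4 groups were SW480 GFP, SW480 dnLEF1, SW620 GFP and SW620 dnLEF1, with 4 libraries each, all at passage 6. How the constructs were delivered, which promoter drives them, and whether a population is 1 clone or many are not given in these sources. Nor do the labels say whether the libraries of a group came from separate cultures, so the p-values measure the spread between these libraries, which may be technical.

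In the Wnt pathway, beta-catenin that escapes destruction enters the nucleus and binds DNA-bound TCF and LEF proteins, which then switch their target genes on. Colon epithelium uses the pathway to keep crypt cells dividing, and colon cancers commonly keep it on by truncating APC, a scaffold of the complex that destroys beta-catenin. A dominant negative LEF1 (dnLEF1) keeps the DNA-binding domain but cannot bind beta-catenin, so it sits on the same sites without activating them.

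The libraries held 17181204 to 26153506 gene counts. In SW620 GFP replicate 3, 39.4% of the total aligned to more than 1 place, and the shared calls without it were 234 rises and 123 falls. By its gene counts replicate 1 stood apart in both GFP groups, since the chi-square per degree of freedom between libraries was 11.7 to 16.9 for its SW620 pairs and 4.69 to 7.21 for the other SW620 pairs. In SW480 GFP these ranges were 12.3 to 13.8 and 1.96 to 6.505. Without replicate 1 of all 4 groups, an alternative chosen after seeing the data, 286 rises and 156 falls were shared. Of these, 233 rises and 116 falls were among the 296 and 168 found with all libraries. The colon epithelial markers EPCAM, KRT8, KRT18 and KRT19 had group means of 311 CPM (counts scaled to a common library size) or more in all 4 groups, while CEACAM5 was at most 0.0569 CPM. Among the 7 of these 8 markers that were tested, 6 fell and CDH1 rose in SW480, and VIL1 and CDH1 fell in SW620. Over all genes, 25.8% fell and 24.1% rose in SW480, and 2.21% fell in SW620. Group means of CDX2, an intestinal transcription factor, were 12.2 CPM in SW480 GFP and 0.131 in SW480 dnLEF1, beside 6.62 and 8.83 in SW620. Their part in other results was not tested. Summed markers of endothelial cells reached at most 3.89 CPM, of leukocytes 11.3 CPM and of erythroid cells 1.25 CPM in any library. The 7 fibroblast markers summed to between 8.89 and 38.0 CPM, mostly COL1A1 and LUM, with DCN at 0 in both SW480 groups and COL3A1 at 0 in both SW620 groups. No member of these 4 lists of other cell types was a shared call, and VIL1, described below, was the shared call of the epithelial markers. In bulk RNA, fewer cells of a kind and less RNA per cell cannot be told apart.

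LEF1 counts rose with dnLEF1 in both lines, with no overlap between the groups. The gene is on chromosome 4 at 108047545 to 108168956, minus strand (hg38, as are all positions here). It read 52.6, 52.3, 48.8 and 52.9 CPM in the SW480 GFP libraries and 273, 271, 269 and 173 in SW480 dnLEF1, where replicate 4 was lowest. SW620 began from far less LEF1, at 3.63, 3.92, 2.82 and 3.08 CPM with GFP and 25.6, 20.1, 23.2 and 24.2 with dnLEF1. Its log2 change, dnLEF1 over GFP, was 2.25 ± 0.11 in SW480 and 2.79 ± 0.15 in SW620 (adjusted p = 1.42e-12 and 1.01e-10). Each value is given ± an approximate standard error, with p-values from edgeR's quasi-likelihood test adjusted over all 14926 genes. A count per gene sums what the construct and the cell's own LEF1 contribute, which cannot be told apart.

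The average contrast called 2553 rises (17.1% of genes tested) and 2879 falls (19.3%). Most of these calls came from SW480 alone: 4268 of 5432 were called there and not in SW620, 293 in SW620 alone, 464 in both in the same direction and 322 in neither. In 85 the lines were called in opposite directions, and 1203 had a log2 change of the other sign in 1 line. The lines' own contrasts differed in size, with 3594 rises (24.1%) and 3857 falls (25.8%) in SW480 against 824 rises (5.52%) and 330 falls (2.21%) in SW620. Shared rises were thus 1.98% of genes tested and shared falls 1.13%, beside 259 genes (1.74%) called in opposite directions.

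Of the 824 SW620 rises, 296 (35.9%) also rose in SW480 and 202 (24.5%) fell there. Of the 330 SW620 falls, 168 (50.9%) also fell in SW480 and 57 (17.3%) rose. Seen from SW480, the shared genes were 8.24% of its rises and 4.36% of its falls. The shared changes were mostly small. Among rises the median log2 change was 0.56 in SW480 and 0.51 in SW620, and among falls -0.78 and -0.48, against medians over all genes tested of -0.0073 and -0.0023. A change of at least 2-fold in both lines was found for 38 rises and 25 falls, of which 24 and 15 reached 1 CPM in a group of each line, against 270 of all shared rises and 153 of all shared falls. The other large changes thus rest on genes that were close to absent in a line. By contrast, 207 rises and 114 falls were under 1.5-fold in at least 1 line. The GFP and dnLEF1 libraries did not overlap in either line for 246 of the shared rises and 140 of the shared falls, beside 377 and 304 of all genes tested. That count follows in part from the calls themselves.

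The size of the change also differed between lines for part of the shared genes. A test of the line difference itself was called for 4248 of all genes (28.5%), for 107 of the 296 shared rises and for 65 of the 168 shared falls. Falls were larger in SW480 in 58 of those 65, and rises in 65 of those 107.

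**Figure D1:**
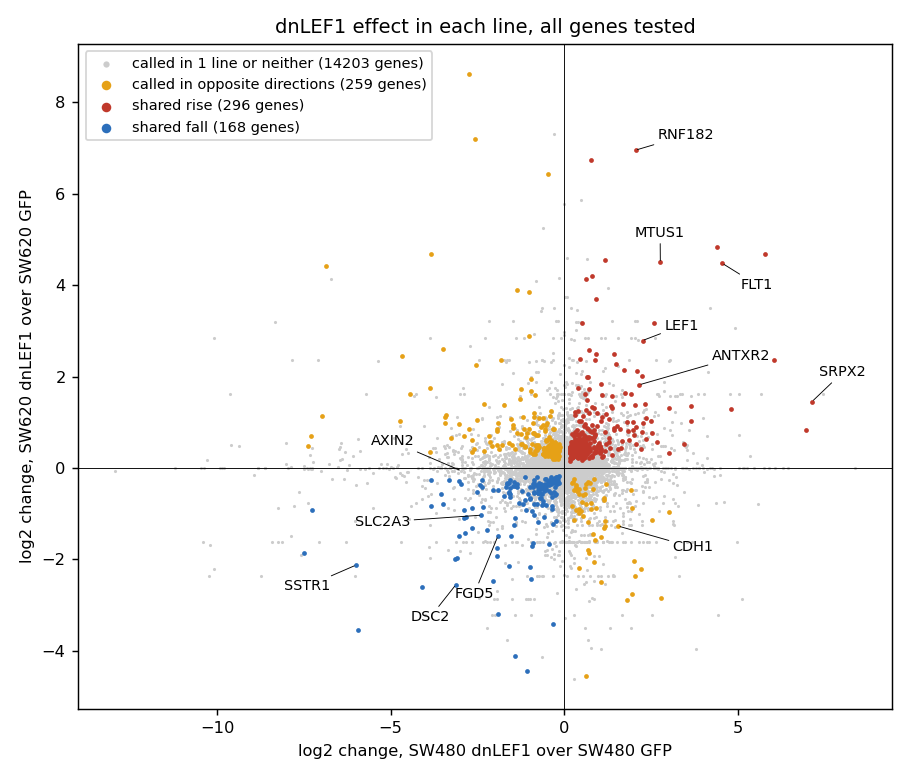
Log2 change with dnLEF1 in SW480 (x axis) and in SW620 (y axis) for all 14926 genes tested, each point 1 gene. The 296 shared rises lie at the upper right, the 168 shared falls at the lower left and the 259 opposite calls in the other corners, while AXIN2 sits far to the left with almost no change in SW620.

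The shared genes were ranked by the smaller of the 2 lines' log2 changes, among shared calls with a mean of at least 5 CPM in a group and no overlap in either line. In that order the 12 rises were TM4SF18, FLT1, MTUS1, EFNA5, TNFSF4, RNF182, ZIC2, ANTXR2, ARSJ, PRKCH, SRPX2 and FILIP1L. Several of them were close to absent from SW620, so their levels there are given beside each change. Levels of different genes are not compared here, since CPM takes no account of gene length. Lack of overlap was a condition of the ranking. Where given for these 12 rises and the 12 falls below, it adds no support.

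ANTXR2, a membrane receptor for basement membrane proteins and anthrax toxin, changed by about the same amount in both lines. The gene lies on chromosome 4 at 79901146 to 80125454, minus strand. ANTXR2 read 3.95, 3.98, 3.48 and 4.103 CPM in SW480 GFP and 15.1, 19.8, 18.2 and 16.3 in SW480 dnLEF1. The SW620 libraries gave 4.04, 3.14, 2.72 and 3.22 with GFP and 10.7, 10.9, 12.6 and 12.1 with dnLEF1. Every dnLEF1 library was above every GFP library of its line. The log2 changes were 2.16 ± 0.12 in SW480 and 1.82 ± 0.12 in SW620 (adjusted p = 4.94e-12 and 2.96e-09), and their difference of 0.34 ± 0.17 did not pass the test (adjusted p = 0.150).

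FILIP1L, which encodes a filamin-interacting protein (chromosome 3 at 99828811 to 100114513, minus strand), read 5.06, 3.84, 3.95 and 3.97 CPM in SW480 GFP and 17.8, 22.4, 23.4 and 21.1 in SW480 dnLEF1. FILIP1L in SW620 read 6.48, 4.796, 6.496 and 3.62 with GFP and 15.7, 13.2, 14.9 and 12.5 with dnLEF1. The 4 dnLEF1 libraries lay above the 4 GFP libraries in each line. It rose by 2.33 ± 0.15 in SW480 and 1.40 ± 0.15 in SW620 (adjusted p = 7.55e-11 and 2.41e-06). The rise was larger in SW480 (difference 0.92 ± 0.21, adjusted p = 0.00254).

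MTUS1, a microtubule-associated candidate tumour suppressor (chromosome 8 at 17643795 to 17801094, minus strand), went from 14.1, 12.4, 11.9 and 12.7 to 83.6, 93.1, 99.1 and 72.6 CPM in SW480. MTUS1 in SW620 went from 0.136, 0.0461, 0.319 and 0.0447 to 3.12, 2.89, 3.23 and 2.94 CPM. The 4 SW620 dnLEF1 libraries lay close together, and the 4 SW620 GFP libraries were close to 0. On the log2 scale the changes were 2.77 ± 0.11 in SW480 and 4.50 ± 0.30 in SW620 (adjusted p = 1.94e-14 and 2.29e-09).

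RNF182, an E3 ubiquitin ligase, was near 0 in SW620 without dnLEF1. Its 4 SW620 GFP libraries held 3 counts in all and its SW620 dnLEF1 libraries 440, a ratio of 145 with a 95% counting interval of 49.2 to 704. RNF182 read 2.97, 5.52, 5.19 and 6.55 CPM in SW620 dnLEF1. SW480 started higher, at 2.21, 3.17, 3.52 and 2.96 CPM, and reached 11.8, 12.7, 12.4 and 12.4 CPM, a log2 change of 2.06 ± 0.19 (adjusted p = 1.60e-08).

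SRPX2, a secreted ligand of the urokinase receptor (chromosome X at 100644195 to 100675788, plus strand), showed the reverse order of the lines. SRPX2 read 0.158, 0.0447, 0 and 0.0912 CPM in SW480 GFP and 10.98, 12.5, 11.6 and 11.6 in SW480 dnLEF1. SRPX2 in SW620 read 0.6802, 0.461, 0.319 and 0.625 with GFP and 1.43, 1.29, 1.73 and 1.33 with dnLEF1. No library overlapped between GFP and dnLEF1 in either line, and the gap was far wider in SW480. These are log2 changes of 7.14 ± 0.28 in SW480 and 1.45 ± 0.25 in SW620 (adjusted p = 2.01e-14 and 0.000551), and the line difference was 5.69 ± 0.46 (adjusted p = 6.80e-09).

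FLT1, a receptor for vascular endothelial growth factor, and TM4SF18, a membrane protein of the L6 family, were shared calls that rest on very few SW620 counts. FLT1 read 1.94, 1.21, 1.76 and 1.73 CPM in SW480 GFP and 25.2, 41.8, 44.02 and 46.1 in SW480 dnLEF1, a log2 change of 4.56 ± 0.20 (adjusted p = 1.17e-13). In SW620 it had 1 count over the GFP libraries and 33 over the dnLEF1 libraries, a ratio of 32.6 (95% counting interval 5.45 to 1325). TM4SF18 read 0.355, 0.358, 0.286 and 0.456 CPM in SW480 GFP and 15.4, 20.3, 21.3 and 25.1 in SW480 dnLEF1. It had no count in SW620 GFP and 12 in SW620 dnLEF1, at least 3.95-fold higher against a floor of 3 counts over the group. Intervals and floors cover counting error only.

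The other 5 rises of the 12 had these log2 changes. EFNA5, an ephrin ligand, rose by 2.60 ± 0.19 in SW480 and 3.17 ± 0.35 in SW620, where its SW620 libraries ranged over 0.0532 to 0.363 CPM with GFP and 1.58 to 2.696 with dnLEF1. ARSJ, a sulfatase, rose by 1.75 ± 0.23 in SW480 and 1.64 ± 0.21 in SW620, and PRKCH, a protein kinase C, by 1.48 ± 0.15 in SW480 and 2.27 ± 0.33 in SW620. In SW620 the group means of ARSJ were 1.91 CPM with GFP and 5.93 with dnLEF1, and those of PRKCH were 0.168 and 0.808. TNFSF4, the ligand of OX40 on T cells, rose by 6.05 ± 0.41 in SW480 and 2.37 ± 0.64 in SW620, with 0.198 to 0.629 CPM in the SW620 dnLEF1 libraries. ZIC2, a zinc finger transcription factor, rose by 2.24 ± 0.16 in SW480 and 2.01 ± 0.56 in SW620 with 0.2903 to 0.491 CPM there. TNFSF4 lost its SW620 call without SW620 GFP replicates 3 or 4 or SW620 dnLEF1 replicates 3 or 4 (adjusted p in SW620 of 0.0646 to 0.0879). ZIC2 lost it without SW620 GFP replicates 1, 2 or 3 or SW620 dnLEF1 replicates 2 or 3 (adjusted p in SW620 of 0.0642 to 0.0889).

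In the same ranking the 12 largest shared falls were SSTR1, FGF9, CAPN6, SORCS2, WNT11, FGD5, NTRK2, HKDC1, TC2N, ALPP, SLC2A3 and CAMK4. Promoters of the 24 largest shared changes were searched for the core sequence of TCF and LEF sites, which the DNA-binding domain of LEF1 is known to bind. The letters searched were CTTTG followed by AA, AT, TA or TT, on both strands, in the 250 bases before each RefSeq start (GRCh38.p14). Of the 24 genes, 19 were searched, some with several starts, and CAPN6, FGD5, NTRK2 and TNFSF4 had a match before at least 1 start. Counted by promoter, 4 of their 29 (13.79%) held a match, close to the 4199 of 35116 (11.96%) over the whole table. The windows below show the 3 falls with a match, printed 5′ to 3′ on the strand of the gene with the matched letters in capitals. They are chrX:111270484-111270583 (minus strand) for CAPN6, chr3:14818712-14818811 (plus strand) for FGD5 and chr9:84701505-84701604 (plus strand), before 1 of several starts, for NTRK2.
CAPN6: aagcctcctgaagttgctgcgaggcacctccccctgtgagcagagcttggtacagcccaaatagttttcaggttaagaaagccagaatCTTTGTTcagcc
FGD5: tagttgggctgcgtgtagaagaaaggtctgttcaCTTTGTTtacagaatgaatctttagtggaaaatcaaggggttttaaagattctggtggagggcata
NTRK2: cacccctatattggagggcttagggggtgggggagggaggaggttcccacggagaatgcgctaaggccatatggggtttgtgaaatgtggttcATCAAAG
The matches begin 12, 216 and 7 bases before the start, and none of the 3 windows overlaps a GENCODE 44 exon. A match describes the letters only, and occupancy was not measured here.

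FGD5, an exchange factor that activates the GTPase CDC42, fell in both lines. FGD5 read 167, 196, 189 and 180.3 CPM in SW480 GFP and 48.5, 50.8, 50.8 and 44.4 in SW480 dnLEF1. FGD5 in SW620 read 13.5, 16.7, 16.1 and 17.6 with GFP and 4.11, 6.14, 5.11 and 7.299 with dnLEF1. Its level with GFP was much higher in SW480, and no dnLEF1 library reached a GFP library of its line. Log2 changes came to -1.91 ± 0.099 in SW480 and -1.49 ± 0.13 in SW620 (adjusted p = 1.99e-12 and 1.05e-07), with a line difference of -0.42 ± 0.16 that did not pass the test (adjusted p = 0.0546).

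NTRK2, the receptor for the neurotrophin BDNF, read 37.7, 41.7, 39.5 and 36.9 CPM in SW480 GFP and 6.34, 5.29, 3.91 and 3.57 in SW480 dnLEF1. NTRK2 in SW620 read 6.58, 7.102, 7.08 and 6.61 with GFP and 2.52, 2.15, 2.64 and 2.41 with dnLEF1. Groups were separate in both lines, and the fall was larger in SW480. The fitted log2 changes were -3.02 ± 0.12 in SW480 and -1.48 ± 0.15 in SW620 (adjusted p = 5.32e-14 and 1.00e-06).

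CAPN6, a calpain family member that binds microtubules, fell by nearly equal log2 amounts. CAPN6 read 1.07, 1.97, 1.62 and 2.598 CPM in SW480 GFP and 0.437, 0.593, 0.547 and 0.278 in SW480 dnLEF1. CAPN6 in SW620 read 4.897, 6.87, 4.26 and 6.39 with GFP and 1.34, 1.23, 1.61 and 1.62 with dnLEF1. Expressed on the log2 scale, the changes were -1.93 ± 0.30 in SW480 and -1.94 ± 0.23 in SW620 (adjusted p = 2.18e-05 and 8.06e-06). SORCS2, a sortilin family receptor, did likewise with log2 changes of -1.94 ± 0.19 in SW480 and -1.76 ± 0.18 in SW620.

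Ligands and receptors made up a further set. SSTR1, a somatostatin receptor (chromosome 14 at 38207904 to 38213067, plus strand), read 8.97, 15.7, 15.6 and 17.2 CPM in SW480 GFP and 0.219, 0.339, 0 and 0.324 in SW480 dnLEF1. SSTR1 in SW620 read 4.99, 4.52, 5.86 and 3.797 with GFP and 1.19, 0.859, 1.101 and 1.16 with dnLEF1. It fell to near 0 in SW480 and to about 1 CPM in SW620, with log2 changes of -6.004 ± 0.32 in SW480 and -2.13 ± 0.27 in SW620 (adjusted p = 3.32e-12 and 1.73e-05). FGF9, a fibroblast growth factor, fell, with log2 changes of -3.14 ± 0.23 in SW480 and -1.99 ± 0.25 in SW620 (adjusted p = 6.27e-10 and 1.75e-05). WNT11, a ligand best known for signalling without beta-catenin, read 5.26, 4.43, 5.005 and 5.36 CPM in SW620 GFP and 1.29, 1.23, 0.787 and 1.29 in SW620 dnLEF1. WNT11 in SW480 read 1.303, 2.15, 3.09 and 1.91 and 0.69998, 0.593, 0.505 and 0.972 CPM, with GFP replicate 1 nearest to the dnLEF1 libraries. Its log2 changes were -1.60 ± 0.26 in SW480 and -2.14 ± 0.23 in SW620 (adjusted p = 4.44e-05 and 2.51e-06).

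HKDC1, a hexokinase domain protein (chromosome 10 at 69220332 to 69267552, plus strand), fell from different starting levels. HKDC1 read 42.8, 37.7, 35.99 and 36.9 CPM in SW620 GFP and 15.7, 15.3, 14.7 and 14.4 in SW620 dnLEF1. HKDC1 in SW480 read 3.04, 3.35, 2.67 and 3.69 with GFP and 0.656, 0.677, 0.715 and 0.648 with dnLEF1. The 4 libraries of each group lay close together and the groups were far apart. It changed by log2 values of -2.23 ± 0.15 in SW480 and -1.35 ± 0.083 in SW620 (adjusted p = 1.47e-10 and 6.94e-10).

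TC2N, a protein with tandem C2 domains, fell, with log2 changes of -2.65 ± 0.12 in SW480 and -1.32 ± 0.12 in SW620. CAMK4, a calcium and calmodulin dependent kinase, fell, with log2 changes of -0.98 ± 0.17 in SW480 and -2.18 ± 0.25 in SW620. ALPP, placental alkaline phosphatase, fell too, with -1.44 ± 0.21 in SW480 and -1.24 ± 0.27 in SW620. ALPP has near-identical neighbours in its family, so its counts are uncertain.

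**Figure D2:**
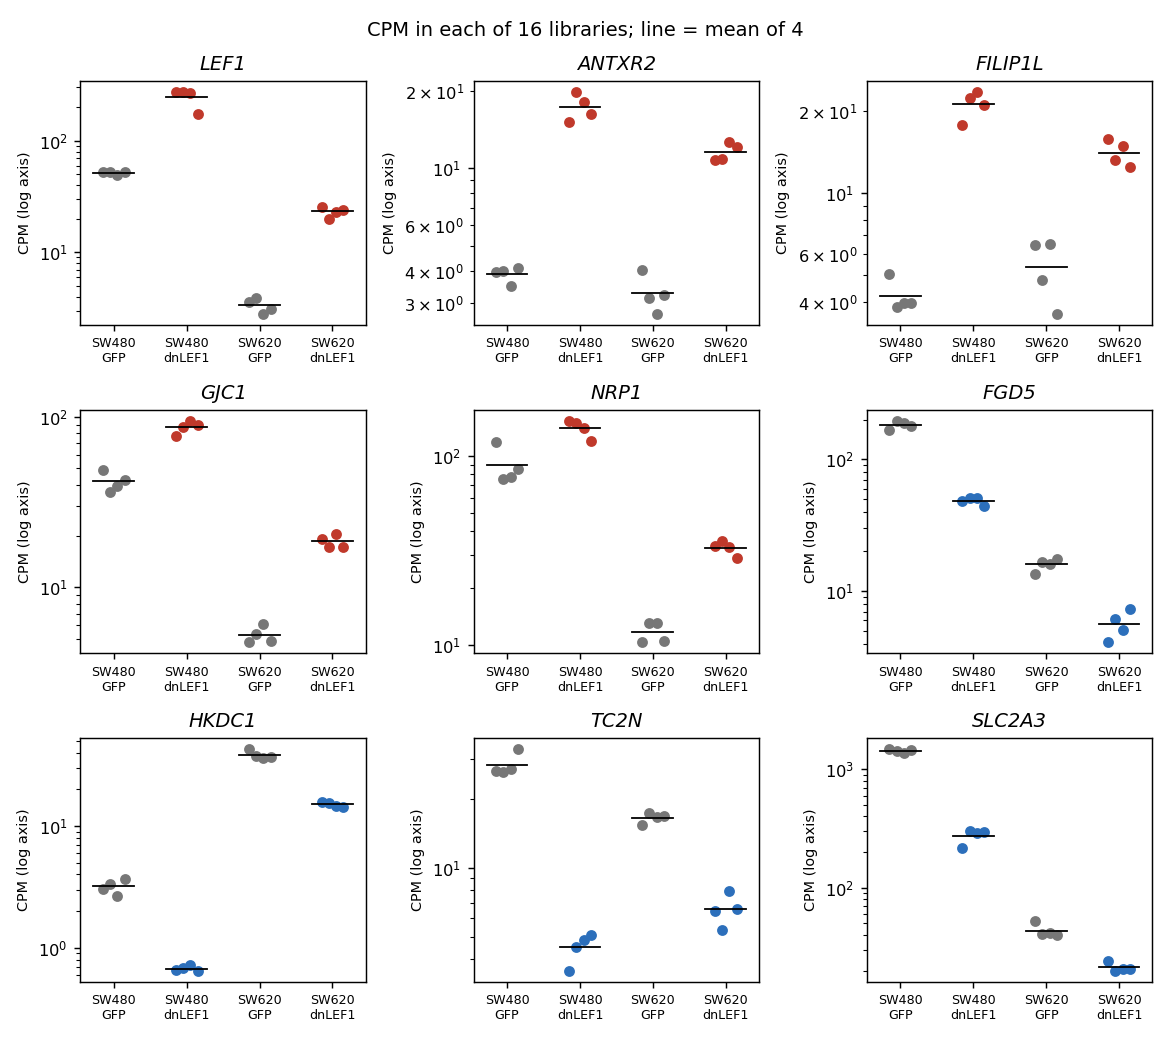
CPM (log axis, a separate scale for each gene) in each of the 16 libraries for 5 shared rises (red) and 4 shared falls (blue), with GFP libraries in grey and a line at the mean of 4. The ranking admitted ANTXR2, FILIP1L, FGD5, HKDC1, TC2N and SLC2A3 only because their groups do not overlap, so the panels show how wide each gap is, and LEF1, GJC1 and NRP1 are shown beside them.

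Shared rises were not spread evenly over the genome. Chromosome 7 held 75 of the 296, which is 10.96% of its 684 genes tested, against 1.98% over all chromosomes. Neighbouring genes shifted together in stretches, which were sought because such a shift was already known. To find one, 25 genes in a row with a mean log2 CPM above 2 were examined at a time, and sets where 23 or more had changes of 1 sign in a line were merged. Higher stretches of SW620 dnLEF1 ran over chr5:50.7-95.8 Mb, chr7:56.0-139.0 Mb, chr7:142.9-158.8 Mb and chr20:0.4-17.7 Mb. These hold 661 of the genes tested (4.43%) but 96 of the shared rises (32.4%). On chromosome 7 all but 2 of the 75 shared rises lay in a stretch.

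Inside the SW620 higher stretches the direction in SW480 was even: of 350 SW620 rises there, 96 rose and 95 fell in SW480. Outside the stretches of either line, 187 of 446 SW620 rises (41.9%) also rose in SW480 and 101 (22.6%) fell, where 23.6% and 25.3% of all genes outside stretches rose and fell in SW480. For falls outside stretches the counts were 148 of 291 (50.9%) falling and 50 (17.2%) rising in SW480. Of all genes tested, 11.15% lay in a stretch of either line, beside 109 shared rises (36.8%) and 20 shared falls (11.9%). Among changes of at least 2-fold in both lines, 3 of the 38 rises and 1 of the 25 falls lay in a stretch. EFNA5 and CAMK4 of the genes above lie in a lower stretch of SW480. When stretch genes were left out of the fit itself, 173 rises and 125 falls were shared. The origin of the stretches was not tested.

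**Figure D3:**
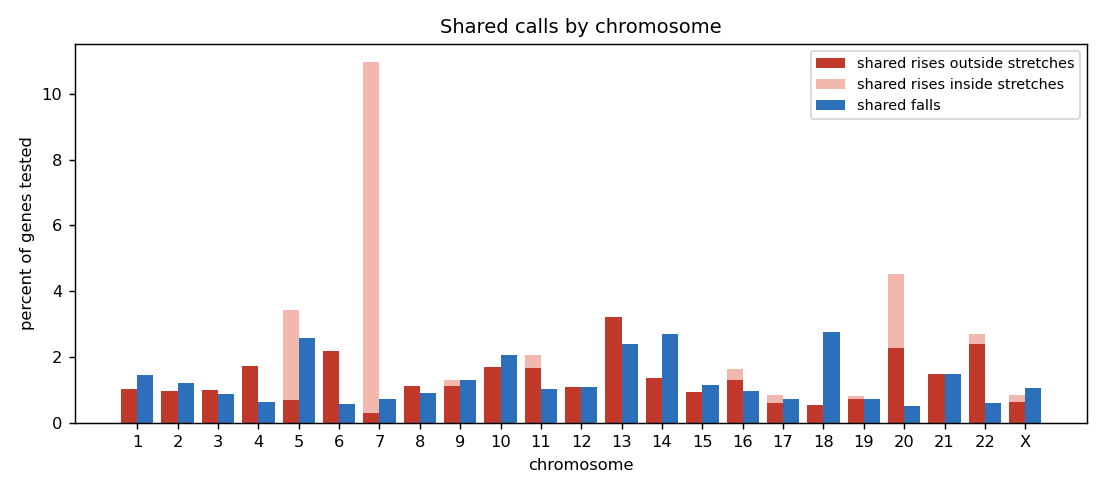
Percent of each chromosome's tested genes that were shared rises (red, pale where inside a stretch) or shared falls (blue). Chromosome 7 stands at 10.96% for rises, almost wholly inside stretches, and chromosome 20 follows at 4.53%.

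The gene lists below were taken from pathway knowledge with earlier results of these data known, and are described by counts and medians. Of 48 tested Wnt target and feedback genes, LEF1 and EPHB4 rose and NKD2 and TIAM1 fell in both lines, while 6 moved in opposite directions. Shared rises and shared falls were each 4.17% of the list, beside 1.98% and 1.13% of all genes, and 1.74% of all genes were opposite calls. The LEF1 count also sums what the construct contributes, and EPHB4 lies in a higher stretch of SW620. In this list SW480 had 29 falls and 9 rises, and SW620 had 3 falls and 10 rises, where the shares over all genes were 25.8% falls and 24.1% rises in SW480 and 2.21% and 5.52% in SW620. The median log2 change was -0.43 in SW480 and 0.048 in SW620. NKD2, a feedback inhibitor that binds Dishevelled, read 17.6, 26.4, 26.2 and 23.8 CPM in SW480 GFP and 2.97, 4.53, 4.63 and 5.19 in SW480 dnLEF1. NKD2 in SW620 read 72.1, 73.2, 78.9 and 87.96 and 55.8, 63.7, 60.7 and 61.4 CPM. The groups did not overlap in either line, but the SW620 gap was narrow. Its log2 changes were -2.44 ± 0.14 in SW480 and -0.37 ± 0.11 in SW620 (adjusted p = 1.21e-11 and 0.0421). The SW620 call was lost without SW480 GFP replicate 4, SW480 dnLEF1 replicate 2, SW620 GFP replicates 2, 3 or 4 or SW620 dnLEF1 replicates 1, 2, 3 or 4 (adjusted p in SW620 of 0.0508 to 0.134). TIAM1, an activator of the GTPase RAC1, fell, with log2 changes of -0.26 ± 0.077 in SW480 and -0.34 ± 0.083 in SW620.

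The classical Wnt readouts show how far the average can be set by 1 line. AXIN2, a negative feedback target and component of the destruction complex, had an average log2 change of -1.52 ± 0.040 (adjusted p = 2.38e-16). AXIN2 read 567, 544, 542 and 548 CPM in SW480 GFP and 71.5, 72.5, 71.96 and 63.1 in SW480 dnLEF1. AXIN2 in SW620 read 348, 335, 337 and 313 with GFP and 335, 312, 321 and 311 with dnLEF1. Those SW620 groups overlapped, and the log2 change there was -0.059 ± 0.055 (adjusted p = 0.651) against -2.98 ± 0.060 in SW480. CCND1, which encodes cyclin D1, had an average of -0.47 ± 0.044, with -1.06 ± 0.063 in SW480 and 0.13 ± 0.063 in SW620 (adjusted p = 1.75e-11 and 0.295).

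Adherens junction and desmosome genes gave 3 shared falls and no shared rise among 24 tested, with falls at 12.5% beside 1.13% of all genes. The list's median log2 change was -0.30 in SW480 and -0.15 in SW620. DSC2, a desmosomal cadherin (chromosome 18 at 31058840 to 31102522, minus strand), fell furthest. DSC2 read 3.59, 4.25, 2.95 and 3.0999 CPM in SW480 GFP and 0.437, 0.212, 0.379 and 0.556 in SW480 dnLEF1. DSC2 in SW620 read 1.63, 2.31, 2.18 and 1.698 with GFP and 0.297, 0.368, 0.157 and 0.498 with dnLEF1. All dnLEF1 libraries were at or below 0.556 CPM and all GFP libraries at or above 1.63 CPM. In log2 terms the changes were -3.13 ± 0.27 in SW480 and -2.56 ± 0.30 in SW620 (adjusted p = 4.84e-09 and 6.66e-06).

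CTNNB1, beta-catenin itself, also fell, with a far smaller change in SW620. CTNNB1 read 1503, 1677, 1649.6 and 1712 CPM in SW480 GFP and 681, 769, 775 and 786 in SW480 dnLEF1. CTNNB1 in SW620 read 607, 622, 620.4 and 620.2 with GFP and 513, 537, 541 and 558 with dnLEF1. Groups did not overlap in either line. The log2 changes were -1.12 ± 0.058 in SW480 and -0.20 ± 0.058 in SW620 (adjusted p = 2.15e-12 and 0.0346). That SW620 call was lost without SW620 GFP replicates 2, 3 or 4 or SW620 dnLEF1 replicates 1, 2 or 3 (adjusted p in SW620 of 0.0530 to 0.112). CTNNA1, alpha-catenin, fell, with log2 changes of -0.78 ± 0.056 in SW480 and -0.19 ± 0.056 in SW620, lies in a lower stretch of SW480, and lost its SW620 call without SW480 GFP replicates 2 or 3, SW620 GFP replicates 2, 3 or 4 or SW620 dnLEF1 replicates 1, 2, 3 or 4 (adjusted p in SW620 of 0.0510 to 0.135). The count of falls in this list was 1 without each of SW620 GFP replicates 2, 3 and 4 and SW620 dnLEF1 replicates 1 and 2. CDH1, E-cadherin, was called in opposite directions, with 1.56 ± 0.13 in SW480 and -1.27 ± 0.12 in SW620 (adjusted p = 4.37e-09 and 6.97e-07) and an average of 0.14 ± 0.089 (adjusted p = 0.228).

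Tight junction genes had 3 shared rises (10.34%) and 1 shared fall (3.45%) among 29 tested, beside 1.98% and 1.13% of all genes, and these background shares hold for each list that follows. The rises were CLDN3 (1.21 ± 0.090 in SW480 and 0.52 ± 0.094 in SW620), CLDN4 (0.70 ± 0.095 in SW480 and 0.39 ± 0.095 in SW620) and OCLN (0.33 ± 0.084 in SW480 and 0.50 ± 0.084 in SW620), which encode claudins and occludin. All 3 lie in higher stretches of SW620, on chromosomes 7 and 5. CLDN4 lost its SW620 call without SW620 dnLEF1 replicates 2 or 4 (adjusted p in SW620 of 0.0558 to 0.0597), and its SW620 groups overlapped. F11R, the junctional adhesion molecule JAM-A, fell, with log2 changes of -0.55 ± 0.056 in SW480 and -0.25 ± 0.055 in SW620 and lies outside the stretches. GJC1, which encodes a connexin of gap junctions, was the shared rise among 10 gap junction genes. GJC1 read 48.9, 36.2, 39.5 and 42.7 CPM in SW480 GFP and 77.1, 87.4, 95.2 and 89.7 in SW480 dnLEF1. GJC1 in SW620 read 4.76, 5.304, 6.12 and 4.87 with GFP and 19.3, 17.2, 20.6 and 17.3 with dnLEF1. The dnLEF1 libraries were higher without overlap in both lines, by 1.06 ± 0.090 in SW480 and 1.83 ± 0.11 in SW620 (adjusted p = 4.79e-09 and 7.09e-10).

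Interferon response and antigen presentation genes rose widely in SW480, with 37 of 53 called, where 24.1% of all genes rose. In SW620 4 rose (7.55%, close to the 5.52% of all genes), and all 4 were shared. Those 4 (7.55%, against 1.98% of all genes) were the immunoproteasome subunits PSMB8 and PSMB9, the peptide transporter TAP1 and its partner tapasin, TAPBP, which load peptides onto MHC class I. No gene of the list was a shared fall, and the list's median was 0.64 in SW480 and 0.060 in SW620. PSMB9 (chromosome 6 at 32844136 to 32859851, plus strand) read 12.95, 17.3, 16.1 and 14.1 CPM in SW480 GFP and 39.1, 37.5, 35.3 and 43.6 in SW480 dnLEF1. PSMB9 in SW620 read 1.13, 0.646, 0.639 and 0.6701 with GFP and 2.67, 1.78, 1.69 and 1.62 with dnLEF1. Replicate 1 was the highest of each SW620 group, and the groups did not overlap in either line. On the log2 scale the changes were 1.36 ± 0.12 in SW480 and 1.30 ± 0.23 in SW620 (adjusted p = 5.23e-09 and 0.000740). PSMB8 rose by 1.01 ± 0.099 in SW480 and 0.55 ± 0.11 in SW620, TAP1 by 0.64 ± 0.065 in SW480 and 0.30 ± 0.071 in SW620 and TAPBP by 0.72 ± 0.060 in SW480 and 0.22 ± 0.063 in SW620. PSMB8, PSMB9 and TAP1 are neighbours on chromosome 6 whose annotated spans overlap on opposite strands, so without a known strand setting their reads cannot be told apart where they overlap.

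YAP and TEAD targets and partners gave 6 shared rises and no shared fall among 34 tested (17.6%, beside 1.98% of all genes). The list's median log2 change was 0.35 in SW480 and 0.10 in SW620. All 6 genes that rose in SW620 rose in SW480 too, and they were ARHGEF17, AXL, CRIM1, TEAD2, TEAD3 and WWTR1. In SW480 18 of the 34 rose, where 24.1% of all genes rose. Of all genes 5.52% rose in SW620, and 35.9% of those also rose in SW480. WWTR1 encodes TAZ, the coactivator related to YAP, and TEAD2 and TEAD3 are the DNA-binding partners. ARHGEF17, a guanine nucleotide exchange factor, read 18.4, 17.7, 19.4 and 19.2 CPM in SW480 GFP and 33.7, 47.1, 46.04 and 42.6 in SW480 dnLEF1. ARHGEF17 in SW620 read 2.902, 3.74, 3.03 and 4.38 with GFP and 5.39, 6.69, 6.21 and 6.18 with dnLEF1. No overlap was seen in either line, and the log2 changes were 1.18 ± 0.10 in SW480 and 0.79 ± 0.14 in SW620 (adjusted p = 1.00e-08 and 0.000679).

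Of the other YAP and TEAD genes, WWTR1 rose by 0.91 ± 0.076 in SW480 and 0.37 ± 0.091 in SW620, TEAD3 by 0.63 ± 0.10 in SW480 and 0.54 ± 0.12 in SW620 and TEAD2 by 0.31 ± 0.082 in SW480 and 0.48 ± 0.093 in SW620. AXL, a receptor tyrosine kinase, rose by 1.05 ± 0.10 in SW480 and 0.41 ± 0.11 in SW620 and CRIM1, a membrane protein that binds BMPs, by 0.87 ± 0.084 in SW480 and 0.73 ± 0.19 in SW620. AXL lost its SW620 call without SW620 GFP replicates 1 or 2 or SW620 dnLEF1 replicates 3 or 4 (adjusted p in SW620 of 0.0632 to 0.0800). CRIM1 lost it without SW620 GFP replicates 2 or 4 or SW620 dnLEF1 replicate 3 (adjusted p in SW620 of 0.0553 to 0.0745). GFP and dnLEF1 libraries overlapped for AXL in SW620. Without SW620 dnLEF1 replicate 3 the list had 3 shared rises, ARHGEF17, TEAD2 and TEAD3, so WWTR1 was also lost there. TEAD2 lies in a higher stretch of SW480, and the other 5 lie outside stretches.

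ERBB and ERK feedback genes gave 4 shared rises and no shared fall among 41 tested (9.76%), of 6 that rose in SW620. Over all genes 5.52% rose in SW620, and 35.9% of those also rose in SW480. In SW480 the list had 11 rises and 9 falls, where 24.1% of all genes rose and 25.8% fell. The median log2 change of the list was -0.0075 in SW480 and 0 in SW620, close to that of all genes. ERRFI1 and LRIG1 encode inhibitors of EGF receptor signalling, DUSP5 an ERK phosphatase and EREG the EGF-like ligand epiregulin. ERRFI1 read 44.6, 34.2, 35.4 and 39.8 CPM in SW480 GFP and 178, 188, 182 and 163 in SW480 dnLEF1. ERRFI1 in SW620 read 38.3, 41.9, 41.9 and 37.4 with GFP and 54.8, 55.98, 57.1 and 45.5 with dnLEF1. Both lines were free of overlap, with the wider gap in SW480. These are log2 changes of 2.21 ± 0.086 in SW480 and 0.42 ± 0.085 in SW620 (adjusted p = 2.27e-14 and 0.00263). LRIG1 rose by 0.87 ± 0.074 in SW480 and 0.34 ± 0.073 in SW620, DUSP5 by 0.86 ± 0.15 in SW480 and 0.68 ± 0.19 in SW620 and EREG by 0.39 ± 0.14 in SW480 and 1.76 ± 0.21 in SW620. DUSP5 lost its SW620 call without SW620 GFP replicates 1 or 4 or SW620 dnLEF1 replicates 2 or 4 (adjusted p in SW620 of 0.0791 to 0.134). EREG lost its SW480 call without SW480 GFP replicates 2 or 3 or SW480 dnLEF1 replicates 2 or 3 (adjusted p in SW480 of 0.0793 to 0.111). Groups overlapped for DUSP5 in SW620 and for EREG in SW480.

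Glycolysis and hypoxia genes gave 4 shared falls and no shared rise among 43 tested (9.30%, beside 1.13% of all genes), of 5 that fell in SW620. Over all genes 2.21% fell in SW620, and 50.9% of those also fell in SW480. In SW480 the list had 15 rises and 15 falls, where 24.1% of all genes rose and 25.8% fell. The list's median was 0.041 in SW480 and -0.068 in SW620. The falls covered 3 kinds of step: glucose uptake (SLC2A1 and SLC2A3, the transporters GLUT1 and GLUT3), its phosphorylation (HK2, hexokinase 2) and oxygen sensing (EGLN3, a prolyl hydroxylase). SLC2A3 (chromosome 12 at 7919230 to 8019007, minus strand) read 1482, 1424, 1369.5 and 1458 CPM in SW480 GFP and 216, 300.4, 287 and 293 in SW480 dnLEF1. SLC2A3 in SW620 read 52.01, 40.8, 41.3 and 40.03 with GFP and 24.1, 19.9, 20.6 and 20.4 with dnLEF1. Replicate 1 stood apart in 3 of the 4 groups. No dnLEF1 library reached a GFP library of its line, which was a condition of the ranking that named SLC2A3. Log2 changes came to -2.39 ± 0.098 in SW480 and -1.03 ± 0.10 in SW620 (adjusted p = 5.32e-14 and 1.02e-06), the fall being larger in SW480 (difference -1.35 ± 0.14, adjusted p = 2.33e-07). SLC2A3 has a close paralog, so part of its reads may be missing.

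EGLN3 fell, with log2 changes of -1.20 ± 0.13 in SW480 and -0.50 ± 0.12 in SW620, and SLC2A1 with -0.34 ± 0.065 in SW480 and -0.26 ± 0.065 in SW620. SLC2A1 read 1266, 1266, 1205 and 1212 CPM in SW480 GFP and 993, 991, 951 and 970.2 in SW480 dnLEF1. SLC2A1 in SW620 read 457, 449, 439 and 537 with GFP and 372, 391, 371 and 432 with dnLEF1. The groups were separate in both lines though the change was small. SLC2A1 lost its SW620 call without SW620 GFP replicate 4 (adjusted p in SW620 of 0.0564). HK2 fell, with log2 changes of -0.20 ± 0.071 in SW480 and -0.23 ± 0.070 in SW620, and its SW480 groups overlapped.

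BMP and TGF-beta genes gave 3 shared falls and no shared rise among 43 tested (6.98%), which were all the calls of the list in SW620. Of all genes 2.21% fell in SW620, and 50.9% of those also fell in SW480. In SW480 the list had 16 rises and 16 falls, where 24.1% of all genes rose and 25.8% fell. The 3 were BAMBI and SMAD7, which restrain the pathway, and INHBB, a subunit of activin B. BAMBI read 127, 148, 146 and 137 CPM in SW480 GFP and 36.4, 36.99, 35.1 and 39.3 in SW480 dnLEF1. BAMBI in SW620 read 111, 119, 119 and 118 with GFP and 79.2, 92.6, 81.1 and 82.2 with dnLEF1. It was lower in every dnLEF1 library of each line, with log2 changes of -1.91 ± 0.065 in SW480 and -0.48 ± 0.063 in SW620 (adjusted p = 2.76e-15 and 2.55e-05). INHBB fell, with log2 changes of -1.66 ± 0.089 in SW480 and -0.36 ± 0.081 in SW620, and SMAD7 with -0.61 ± 0.081 in SW480 and -0.39 ± 0.11 in SW620. SMAD7 lost its SW620 call without SW620 GFP replicates 1, 2 or 4 or SW620 dnLEF1 replicates 1 or 2 (adjusted p in SW620 of 0.0526 to 0.0768).

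Extracellular matrix genes moved both ways, with 3 shared rises and 2 shared falls among 36 tested (8.33% and 5.56%). THBS1, the matrix protein thrombospondin 1, rose by 1.44 ± 0.14 in SW480 and 0.86 ± 0.13 in SW620 (adjusted p = 2.56e-08 and 0.000184), where its SW620 libraries ranged over 66.2 to 95.5 CPM with GFP and 128 to 162 with dnLEF1. LAMB1, a laminin chain in a higher stretch of SW620, rose by 1.07 ± 0.062 in SW480 and 0.37 ± 0.063 in SW620, and COL6A1, a collagen VI chain, by 0.23 ± 0.074 in SW480 and 0.52 ± 0.078 in SW620. LAMB3, a chain of the epithelial laminin 332, read 50.2, 64.3, 62.5 and 66.1 CPM in SW480 GFP and 27.5, 27.2, 26.4 and 25.1 in SW480 dnLEF1. LAMB3 in SW620 read 72.2, 66.9, 67.9 and 71.8 with GFP and 37.1, 42.05, 40.4 and 42.8 with dnLEF1. The dnLEF1 libraries were lower without overlap, with log2 changes of -1.19 ± 0.077 in SW480 and -0.78 ± 0.076 in SW620 (adjusted p = 7.87e-11 and 6.87e-07). LAMC1, another laminin chain, fell, with log2 changes of -0.18 ± 0.075 in SW480 and -0.29 ± 0.078 in SW620, and its SW480 groups overlapped. In most fits that left out 1 library (12 of 16) the list had 1 shared fall, with LAMB3 called in both lines in all 16.

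Genes of the urokinase system and metalloproteinases had 3 shared rises and no shared fall among 30 tested, against 1.98% shared rises over all genes. Beside SRPX2 they were SERPINE2, a serine protease inhibitor (1.32 ± 0.10 in SW480 and 0.43 ± 0.10 in SW620), and TIMP3, a metalloproteinase inhibitor (0.65 ± 0.095 in SW480 and 0.68 ± 0.16 in SW620). SERPINE2 lost its SW620 call without SW620 dnLEF1 replicate 4 (adjusted p in SW620 of 0.0556), and TIMP3 lies in a higher stretch of SW480.

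Eph, ephrin and axon guidance genes had 3 shared rises (EFNA5, EPHB4 and NRP1) and 1 shared fall (EFNB1) among 39 tested (7.69% and 2.56%). NRP1, a coreceptor for semaphorins and vascular endothelial growth factor, read 119, 75.5, 77.8 and 85.4 CPM in SW480 GFP and 154, 149.8, 141 and 120.2 in SW480 dnLEF1. NRP1 in SW620 read 10.3, 13.1, 12.99 and 10.5 with GFP and 33.4, 35.4, 33.2 and 28.9 with dnLEF1. The highest SW480 GFP library fell just short of the lowest dnLEF1 library, and SW620 was clearly separate. The fitted log2 changes were 0.66 ± 0.12 in SW480 and 1.48 ± 0.13 in SW620 (adjusted p = 9.03e-05 and 2.95e-07). EFNB1, an ephrin ligand in a lower stretch of SW480, fell, with log2 changes of -2.36 ± 0.078 in SW480 and -0.42 ± 0.083 in SW620, and the Eph receptor EPHB4, in a higher stretch of SW620, rose by 0.36 ± 0.053 in SW480 and 0.73 ± 0.067 in SW620.

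Among 23 epithelial splicing and identity genes, EHF rose and ESRP1 and ST14 fell in both lines, which is 4.35% and 8.696%. ESRP1, a splicing regulator of epithelial cells, read 67.5, 90.8, 86.2 and 93.1 CPM in SW480 GFP and 38.4, 50.8, 49.1 and 47.6 in SW480 dnLEF1. ESRP1 in SW620 read 100.4, 128, 124 and 125 with GFP and 58.5, 70.6, 72.8 and 74.3 with dnLEF1. Its dnLEF1 libraries were lower in both lines, with log2 changes of -0.86 ± 0.11 in SW480 and -0.79 ± 0.11 in SW620 (adjusted p = 1.32e-06 and 3.48e-05). ST14, the membrane protease matriptase, fell, with log2 changes of -0.36 ± 0.064 in SW480 and -0.82 ± 0.066 in SW620, and EHF, an ETS transcription factor, rose by 0.86 ± 0.089 in SW480 and 0.44 ± 0.092 in SW620.

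VIL1, which encodes the microvillus protein villin, was the shared fall among 12 enterocyte genes and among the epithelial markers. VIL1 read 31.3, 35.3, 31.9 and 41.3 CPM in SW480 GFP and 1.75, 2.62, 2.95 and 2.41 in SW480 dnLEF1. VIL1 in SW620 read 391, 373, 346 and 349 with GFP and 301, 308, 305 and 299 with dnLEF1. The groups did not overlap, but the SW620 gap was small, with log2 changes of -3.84 ± 0.12 in SW480 and -0.27 ± 0.080 in SW620 (adjusted p = 5.05e-16 and 0.0457). The SW620 call was lost without SW480 GFP replicates 2 or 3, SW480 dnLEF1 replicates 2 or 4, SW620 GFP replicates 1, 2 or 3 or SW620 dnLEF1 replicates 1, 2, 3 or 4 (adjusted p in SW620 of 0.0507 to 0.121). In the enterocyte list SW480 had 9 falls and 2 rises, where 25.8% of all genes fell and 24.1% rose. SW620 had 1 fall, VIL1, where 2.21% of all genes fell. The list's medians were -2.68 in SW480 and -0.18 in SW620.

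Cell-matrix adhesion genes gave 2 shared rises among 36 tested (5.56%), the integrin ITGA2 (0.49 ± 0.14 in SW480 and 0.74 ± 0.15 in SW620) and ZYX (0.40 ± 0.077 in SW480 and 0.51 ± 0.078 in SW620), which encodes the focal adhesion protein zyxin. Both lie in higher stretches of SW620, and the SW480 groups of ITGA2 overlapped. Among 61 actin cytoskeleton and motility genes, ARPC1B, PLS3 and WASL rose (4.92%) and FSCN1 and TIAM1 fell (3.28%) in both lines. Of these, ARPC1B and WASL lie in a stretch. PLS3, an actin bundling plastin outside the stretches, rose by 0.85 ± 0.073 in SW480 and 0.32 ± 0.071 in SW620, and WASL, an activator of actin nucleation in a higher stretch of SW620, by 0.39 ± 0.084 in SW480 and 0.41 ± 0.095 in SW620. FSCN1, the actin bundling protein fascin, fell, with log2 changes of -1.37 ± 0.12 in SW480 and -0.43 ± 0.11 in SW620, and lost its SW620 call without SW620 GFP replicate 1 or SW620 dnLEF1 replicate 4 (adjusted p in SW620 of 0.0566 to 0.0698).

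Among 20 secretory and neuroendocrine genes, SYT13, a synaptotagmin, rose by 0.80 ± 0.14 in SW480 and 0.93 ± 0.14 in SW620 and CHGA, the granule protein chromogranin A, fell. CHGA changed by -1.08 ± 0.14 in SW480. In SW620 it had 10 counts over the GFP libraries and none over the dnLEF1 libraries, at least 3.38-fold lower against a floor of 3 counts over the group. That SW620 call was lost without SW620 GFP replicates 1 or 4 or SW620 dnLEF1 replicates 1, 2, 3 or 4 (adjusted p in SW620 of 0.0624 to 0.127). The SW620 groups of CHGA overlapped. In this list CHGB, DCLK1, SCG2, SCG3 and SYP were called in opposite directions, 5 of 20 beside 1.74% of all genes.

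PROM1, a stem cell surface protein and with LRIG1 a shared rise among 19 intestinal stem cell genes, was at most 0.306 CPM in any SW480 library. It read 24.1, 26.2, 23.9 and 24.4 CPM in SW620 GFP and 50.7, 48.7, 56.6 and 53.7 in SW620 dnLEF1. It rose by 2.36 ± 0.56 in SW480 and 1.09 ± 0.092 in SW620 (adjusted p = 0.00145 and 1.06e-07). LIF, a cytokine of the interleukin 6 family, and TRAF1, a signalling adaptor of TNF receptors, were the shared rises among 33 NF-kB targets and chemokines (6.06%). LIF rose by 0.51 ± 0.10 in SW480 and 0.64 ± 0.13 in SW620 and TRAF1 by 1.42 ± 0.17 in SW480 and 0.84 ± 0.21 in SW620, and TRAF1 lost its SW620 call without SW620 GFP replicates 1 or 2 or SW620 dnLEF1 replicate 3 (adjusted p in SW620 of 0.0554 to 0.0632).

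The remaining lists held 1 or 2 shared calls each. Among 22 neural and immunoglobulin adhesion genes the falls were IGSF3 (-0.26 ± 0.080 in SW480 and -0.58 ± 0.098 in SW620) and the protocadherin PCDHB5 (-0.92 ± 0.23 in SW480 and -1.71 ± 0.42 in SW620), which has close paralogs beside it and so uncertain counts. PCDHB5 lies in a lower stretch of SW480, and its SW480 groups overlapped. Its SW620 totals were 46 counts with GFP and 14 with dnLEF1. Among 25 Notch genes DTX2, a Deltex family ubiquitin ligase, rose by 0.48 ± 0.069 in SW480 and 0.29 ± 0.070 in SW620, and LFNG, a glycosyltransferase that modifies Notch, fell, with log2 changes of -1.44 ± 0.096 in SW480 and -0.32 ± 0.086 in SW620. LFNG lost its SW620 call without SW620 GFP replicate 1 or SW620 dnLEF1 replicates 1, 3 or 4 (adjusted p in SW620 of 0.0596 to 0.0961). Single shared rises were COX7C, a subunit of cytochrome c oxidase, among 53 oxidative phosphorylation genes (0.29 ± 0.074 in SW480 and 0.47 ± 0.073 in SW620) and HSPB1, a small heat shock protein, among 24 stress genes (0.71 ± 0.088 in SW480 and 0.67 ± 0.088 in SW620). CCNB1, cyclin B1, was the shared rise among 63 replication and mitosis genes (0.18 ± 0.062 in SW480 and 0.45 ± 0.062 in SW620), and lost its SW480 call without SW480 GFP replicate 4 or SW480 dnLEF1 replicate 4 (adjusted p in SW480 of 0.0587 to 0.0824). DTX2, COX7C, HSPB1 and CCNB1 lie in higher stretches of SW620. The shared rise was 1.89% of the oxidative phosphorylation list and 1.59% of the replication and mitosis list, near the 1.98% of all genes. GRB10, an adaptor of insulin receptors, rose by 1.17 ± 0.093 in SW480 and 0.38 ± 0.11 in SW620 among 21 insulin-like growth factor genes, and S100A14 fell among 13 S100 genes, with log2 changes of -3.50 ± 0.48 in SW480 and -0.78 ± 0.24 in SW620. GRB10 lost its SW620 call without SW480 GFP replicates 2 or 3, SW480 dnLEF1 replicates 1 or 2, SW620 GFP replicates 1, 2, 3 or 4 or SW620 dnLEF1 replicates 1, 3 or 4 (adjusted p in SW620 of 0.0503 to 0.177). S100A14 lost its SW620 call without SW480 GFP replicates 2 or 3, SW480 dnLEF1 replicate 2, SW620 GFP replicates 1, 2, 3 or 4 or SW620 dnLEF1 replicates 1, 2 or 3 (adjusted p in SW620 of 0.0567 to 0.174). Its SW620 groups overlapped.

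Lists with no shared call are given as counts, since lists this small hold few at 1.98% and 1.13%. They were the 25 cholesterol synthesis genes, 21 fatty acid synthesis genes, 40 amino acid stress and unfolded protein genes, 22 p53 targets, 64 cytosolic ribosomal protein genes, 33 HOX genes, 30 ion channel and GABA receptor genes and 12 RNA quality genes. In the cholesterol list SW480 had 15 rises and SW620 had 5 falls, where 24.1% of all genes rose in SW480 and 2.21% fell in SW620. Among ribosomal protein genes SW480 had 26 rises and SW620 had 1 of 64, beside 24.1% and 5.52% of all genes.

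**Figure D4:**
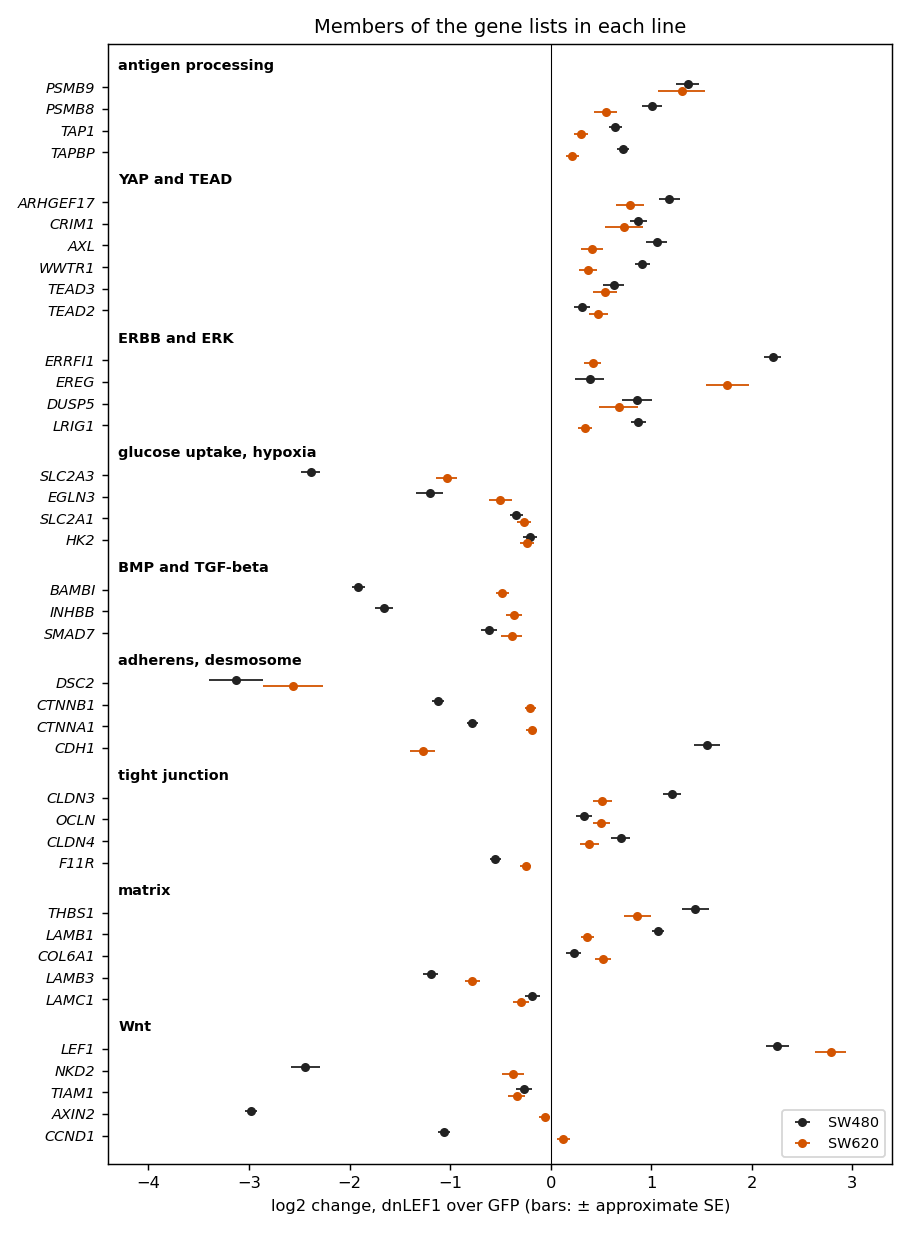
Log2 change with dnLEF1 (x axis, bars show ± approximate SE) in SW480 (black) and SW620 (orange) for members of 9 gene lists, with AXIN2, CCND1 and CDH1 for comparison. The shared genes lie on the same side of 0 in both lines, mostly farther out in SW480, whereas CDH1 lies on opposite sides and AXIN2 and CCND1 lie near 0 in SW620.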

How the data were processed

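The deposited values are whole-number read counts per gene symbol in 16 libraries. The authors made them with Trimmomatic, TopHat2 and HTSeq on hg38, per the submitters' processing notes, which also name DESeq2. Which versions, annotation and strand setting were used is not given in the sources used here. Reads aligned to more than 1 place were in a summary line and not in gene counts. The 5 summary lines (20.0% to 24.3% of the total in 15 libraries, 50.5% in SW620 GFP replicate 3) were left out.

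Groups came from the labels. Of 26485 symbols, 14926 passed edgeR's filterByExpr by group. The fit used edgeR 4.0.16 (R 4.3.3) with 4 group means, TMM scaling, its quasi-likelihood test and Benjamini-Hochberg adjusted p-values called below 0.05. A shared call needs both lines' contrasts in the same direction. Standard errors are the absolute log2 change over the square root of F. CPM uses effective library sizes. Scripts were tested on simulated data. Positions came from GENCODE 44 for 23161 symbols (87.4%). DESeq2 1.42.0, limma 3.58.1 with voom, other scalings, filters, fits and left-out libraries were alternatives, and leaving out all 4 replicate 1 libraries was added after seeing the data.

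The genes named are LEF1, the 12 largest shared rises and falls, up to 3 shared calls of each of 40 lists, and AXIN2, CDH1 and CCND1. Others are named to say which genes made up a count. The members and lists were chosen with earlier results of these data known.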

Additional observations from a re-analysis of the deposited data

Results flagged for a closer look

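Of 332 groups of 4 libraries, for 83 genes, 29 held a library far from the other 3 by Dixon's test, which flags about 1 in 20 groups by chance. SW620 GFP replicate 1 held 8 of these values: SLC2A3 at 52.0 CPM, CTNNB1 at 607, ESRP1 at 100.4, BAMBI at 111, INHBB at 281, PSMB9 at 1.13, FSCN1 at 364 and LFNG at 76.4. SW620 dnLEF1 replicate 1 was high for SLC2A3 at 24.1 CPM and PSMB9 at 2.67, and SW480 dnLEF1 replicate 1 was low for SLC2A3 at 216, CTNNB1 at 681 and SMAD7 at 13.3 and high for S100A14 at 0.394. SW480 GFP replicate 4 was high for ARSJ at 2.05 CPM, FGF9 at 10.03, TC2N at 33.1 and SYT13 at 7.70. In SW480 dnLEF1 replicate 4, LEF1 at 173 CPM and AXIN2 at 63.1 were low. The rest were LEF1 at 48.8 CPM in SW480 GFP replicate 3, FLT1 at 0.0461 in SW620 GFP replicate 2, FILIP1L at 5.06 in SW480 GFP replicate 1, and WNT11 at 0.787 in SW620 dnLEF1 replicate 3. ZYX at 138 CPM in SW480 GFP replicate 2 and 119 in SW620 dnLEF1 replicate 2, LFNG at 25.4 in SW480 GFP replicate 1, EFNB1 at 20.3 in SW620 dnLEF1 replicate 4 and PSMB8 at 20.6 in SW620 dnLEF1 replicate 2 complete them. The share of reads aligned to more than 1 place was 39.4% in SW620 GFP replicate 3, far above the other libraries of its group.

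The size of the dnLEF1 effect differed between the lines, by edgeR's test of the difference with adjusted p below 0.05, for 46 of the 83 genes. Values are the log2 change in SW480 minus that in SW620. Rises were larger in SW480 for SRPX2 (5.69), TNFSF4 (3.68), ERRFI1 (1.79), FILIP1L (0.92), GRB10 (0.79), SERPINE2 (0.89), LAMB1 (0.70), CLDN3 (0.69), AXL (0.64), THBS1 (0.58), PLS3 (0.53), LRIG1 (0.53), PSMB8 (0.46), EHF (0.42) and TAP1 (0.34). They were larger in SW620 for RNF182 (-4.89), MTUS1 (-1.73), EREG (-1.37), NRP1 (-0.82), GJC1 (-0.76), LEF1 (-0.53), EPHB4 (-0.37) and CCNB1 (-0.27). Falls were larger in SW480 for SSTR1 (-3.88), VIL1 (-3.57), S100A14 (-2.72), NKD2 (-2.07), EFNB1 (-1.94), NTRK2 (-1.54), BAMBI (-1.44), SLC2A3 (-1.35), TC2N (-1.33), INHBB (-1.30), FGF9 (-1.15), LFNG (-1.12), FSCN1 (-0.94), CTNNB1 (-0.92), HKDC1 (-0.88), EGLN3 (-0.71), CTNNA1 (-0.59) and LAMB3 (-0.41). Falls were larger in SW620 for CAMK4 (1.20) and ST14 (0.47). Among genes that were not shared calls, the difference was -2.92 for AXIN2, -1.19 for CCND1 and 2.83 for CDH1.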

How the results depend on the processing

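Counting genes of at least 2-fold left 38 shared rises, 25 shared falls, 298 and 374 rises and falls in the average contrast and 37 opposite calls. Leaving stretch genes out of the fit gave 173 shared rises and 140 opposite calls, fewer in part because 1664 genes were not tested. Under the other alternatives run, which include leaving out all 4 replicate 1 libraries, every one of these counts stayed within 1.5 times its value, with shared rises at 232 to 355 and shared falls at 123 to 206. A call shared in the same direction in all of 23 alternatives was found for 163 of the 296 rises and 81 of the 168 falls. The 23 do not include the 2-fold count, the minimum of 5 CPM, or the fits without stretch genes or without all 4 replicate 1 libraries. A gene filtered out of a fit counts as not shared there. TM4SF18 and FLT1 are not among the 163 rises, though they were shared calls in every alternative that held them. WWTR1, TAPBP, COL6A1 and TM4SF1 are also not among the 163 rises, nor HK2 and LAMC1 among the 81 falls. The average log2 changes of the named genes kept their sign in each of these alternatives that gave one.

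The replicate numbers were not taken to pair libraries, since the correlations of same-numbered libraries' deviations ran from -0.20 to 0.45 and 4 of 8 libraries correlated best with their own number. With the replicate block there were 343 shared rises, 198 shared falls, 2757 and 3071 calls in the average contrast and 341 opposite calls.

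Beside left-out libraries, these shared calls were lost in some fits, and the cause was not tested. They were ZIC2 and GRB10 with the replicate block, CTNNB1, NKD2, VIL1, S100A14 and GRB10 with stretch genes left out, NKD2, CTNNA1 and S100A14 with upper quartile factors, and NKD2, VIL1 and S100A14 with a minimum of 5 CPM. CTNNA1 was also lost with no filter, CTNNA1, SMAD7 and TRAF1 in fits of each line's own 8 libraries, and DUSP5, SMAD7, CRIM1, CHGA and GRB10 with limma voom. Without all 4 replicate 1 libraries, ZIC2, VIL1, CHGA, SMAD7, LFNG, TRAF1, S100A14 and GRB10 were not shared calls. Totals of at most 3 counts in a group limit FLT1, TM4SF18, RNF182 and CHGA in SW620. Other named genes also had low totals in a line. In SW620 the GFP and dnLEF1 totals were 8 and 34 counts for ZIC2, 7 and 39 for TNFSF4 and 14 and 71 for PRKCH. For PROM1 in SW480 they were 4 and 23.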

Other observations

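Shared rises outside the stretches were also searched for runs of at least 3 neighbours within 400 kb of each other, a search chosen after the data were seen. There were 3 runs: PSMB8, PSMB9 and TAP1 on chromosome 6, TM4SF18, TM4SF1 and WWTR1 on chromosome 3, and APOBEC3B, APOBEC3C and APOBEC3G on chromosome 22. The APOBEC3 genes encode cytidine deaminases that restrict viruses. APOBEC3G read 1.22, 1.29, 1.22 and 1.03 CPM in SW620 GFP and 5.89, 5.52, 6.29 and 6.93 in SW620 dnLEF1. APOBEC3G in SW480 read 105, 102, 103 and 90.8 with GFP and 150.3, 132, 130.1 and 138 with dnLEF1. No library overlapped between GFP and dnLEF1 in either line, and the log2 changes were 0.46 ± 0.065 in SW480 and 2.38 ± 0.12 in SW620 (adjusted p = 7.68e-06 and 6.49e-11). APOBEC3B rose by 0.38 ± 0.11 in SW480 and 0.84 ± 0.12 in SW620 and APOBEC3C by 0.27 ± 0.068 in SW480 and 0.57 ± 0.073 in SW620. These genes resemble each other closely, so reads may be split or lost among them. TM4SF1 rose by 0.80 ± 0.077 in SW480 and 0.25 ± 0.076 in SW620 (adjusted p = 3.38e-08 and 0.0499), the SW620 value lying at the edge of the threshold.

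PRDM8, a histone methyltransferase family member on chromosome 4 at 80183879 to 80204329, plus strand, had one of the largest shared log2 changes but stayed under 5 CPM in every group. PRDM8 read 0.276, 0.0894, 0.1904 and 0.182 CPM in SW480 GFP and 3.06, 3.81, 4.503 and 4.77 in SW480 dnLEF1. PRDM8 in SW620 read 0, 0.231, 0.1597 and 0 with GFP and 2.42, 2.701, 3.46 and 2.74 with dnLEF1. The gene was near 0 in all 8 GFP libraries and at 2.42 CPM or more in all 8 dnLEF1 libraries, with log2 changes of 4.39 ± 0.35 in SW480 and 4.83 ± 0.42 in SW620 (adjusted p = 1.97e-09 and 1.61e-07). It was chosen after its values were seen.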
